A study of Mus musculus with 2 samples.

Results

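Cyclins are the regulatory subunits that switch on cyclin-dependent kinases (Cdks) at successive steps of the cell cycle. The 8 cyclin genes described here are the A-type Ccna2, the B-types Ccnb1 and Ccnb2, the D-types Ccnd1, Ccnd2 and Ccnd3, and the E-types Ccne1 and Ccne2. They were chosen by name, out of 31053 genes measured, as the cyclins that drive the cell cycle. Earlier results of these data were known at that choice. Their RNA was followed in single cells of the mouse corneal epithelium that had been sorted for GFP in mice of genotype CycB1-GFP, whose fluorescence marks cycling cells through Cyclin B1. The series asks how stem cell fate is regulated in the epithelium of the eye.

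All cells came from 1 group, genotype CycB1-GFP, with 2 replicates in the labels and no treatment, time point or unsorted control. Neither the age and number of the mice nor the make-up of the reporter is stated in the labels. Whether reporter RNA adds to the Ccnb1 count was therefore not tested, and no feature for GFP was in the matrix. Epithelium peeled from whole corneas was dissociated, live GFP-positive cells were collected by flow cytometry, and 10x Genomics 3′ v3 libraries were made. The matrix held 2 libraries, distinguished by the number at the end of the barcode and called library 1 and library 2, since nothing links these numbers to the labelled replicates.

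D-type cyclins pair with Cdk4 and Cdk6 in G1, answer to growth signals, and start the phosphorylation of the retinoblastoma protein. E-type cyclins then activate Cdk2 at the entry into S phase, cyclin A2 serves Cdk2 and Cdk1 through S phase and G2, and the B-type cyclins carry Cdk1 into mitosis before the anaphase-promoting complex destroys them. In the cornea, dividing basal cells replace the surface epithelium, and stem cells sit at the limbus, the border with the conjunctiva. Krt15 is a keratin of the limbus and Krt12 a keratin of the corneal epithelium, so the balance of these RNAs was used to order cells along the limbal to corneal axis.

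After removal of barcodes with under 500 genes or at least 20% mitochondrial UMIs (unique molecular identifiers, each counting 1 captured RNA molecule), 6188 of 6752 barcodes were kept. Library 1 kept 3187 cells with a median of 5571 UMIs, and library 2 kept 3001 cells with a median of 5886. Only 5 barcode sequences were shared between the libraries. Of the kept cells, 424 had no UMI of the proliferation genes Mki67 or Top2a. The corneal epithelial markers were abundant, and 12 cells carried at least 3 UMIs of the immune markers Ptprc, Tyrobp and Fcer1g together. Levels below are counts per 1000000 (CPM), the UMIs of a gene scaled to 1000000 UMIs of the same cells. They are given per library with an exact Poisson 95% interval, which covers counting error only. In libraries 1 and 2, the summed markers of keratocytes were at 0.266 and 0.112 CPM (3 of 5 genes at 0: Kera, Col1a1 and Col1a2), of endothelium at 0.266 and 0.169 (2 of 3 at 0: Cdh5 and Kdr), of melanocytes at 3.52 and 5.79 and of nerve at 1.06 and 1.57. A longer list of 6 immune markers summed to 13.6 and 40.0 CPM, most of it Cd74 (10.2 and 32.1). In cells with mainly Krt15 RNA, the class described below, Cd74 was at 1.66 and 37.95 CPM. No label says that the replicates came from separate mice. With the library as a block in the tests, p-values rest partly on how far differences between cell classes varied between these 2 libraries. That variation may be technical. The tests also draw each gene's spread toward that of all genes, so a p-value does not measure how well the libraries agree for that gene.

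Cells were classed by RNAs other than the cyclins, but from the counts of the same cells. Tests between the phase classes thus describe how cyclin RNA goes with the classing RNAs and are no independent evidence of phase. S cells had at least 4 UMIs of Mcm5, Mcm6 and Pcna together, genes of DNA replication, and under 4 of the mitotic genes Cdc20, Plk1 and Cenpa. Mitotic cells had the reverse, and since those RNAs already build up in G2, the class holds G2 cells too. Library 1 held 382 S and 1075 mitotic cells, and library 2 held 370 and 1068. Another 67 and 60 cells passed both limits, and 1663 and 1503 passed neither. The cells of neither class were shallower, with medians of 4446 and 4461 UMIs against 6792 and 6438 in S cells and 6421 and 6594 in mitotic cells. Those that passed both limits were deeper, with medians of 11081 and 10420 UMIs, and whether they include doublets was not tested.

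The promoters of the B-type and E-type genes are shown because these genes stood at opposite ends of the cycle in the data below. RefSeq promoter sequences (GRCm38.p6) were at hand for Ccnb1, Ccnb2, Ccne1 and Ccnd3, and each stretch is 5′ to 3′ on the gene's strand, ending before the annotated gene start. Capitals mark the motifs found: CCAAT as the core bound by NF-Y, TTTGAA as the cell-cycle homology region (CHR) of late cell-cycle genes, and an E2F motif. The first is chr13:100786571-100786736 (minus strand), the second chr9:70421555-70421804 (minus strand) and the third chr7:38107535-38107740 (minus strand).
Ccnb1: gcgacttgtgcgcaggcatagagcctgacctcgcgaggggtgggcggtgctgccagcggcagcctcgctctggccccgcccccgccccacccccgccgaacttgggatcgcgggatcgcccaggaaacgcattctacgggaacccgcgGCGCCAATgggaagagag
Ccnb2: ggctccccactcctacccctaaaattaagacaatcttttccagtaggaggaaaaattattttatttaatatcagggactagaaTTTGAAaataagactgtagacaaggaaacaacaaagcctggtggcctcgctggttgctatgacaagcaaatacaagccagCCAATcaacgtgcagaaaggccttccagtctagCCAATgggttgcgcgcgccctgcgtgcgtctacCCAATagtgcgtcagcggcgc
Ccne1: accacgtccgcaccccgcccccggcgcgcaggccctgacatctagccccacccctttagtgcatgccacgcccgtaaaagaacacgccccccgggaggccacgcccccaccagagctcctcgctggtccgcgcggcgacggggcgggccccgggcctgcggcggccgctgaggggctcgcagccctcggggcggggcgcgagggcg

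Motifs were searched on both strands in the 250 bases before each RefSeq start: TTTGAA for CHR, CCAAT for NF-Y, any of TTCCCGC or TTCGCGC or TTGCCGC or TTGGCGC for E2F, and TGANTCA for AP-1. Ccnb2 held 3 CCAAT motifs, beginning 87, 54 and 21 bases before its start, and 1 TTTGAA beginning 167 bases before it. Ccnb1 held 2 CCAAT motifs, beginning 99 and 67 bases before its RefSeq start, and the first of them overlapped an E2F motif read on the other strand, beginning 102 bases before the start. The second lies inside the gene as GENCODE annotates it, which begins further upstream, and is outside the printed stretch. The Ccne1 window and the first of the 2 Ccnd3 windows held none of these letters, and the second Ccnd3 window held 1 CCAAT. Over 32851 mouse promoters of the same length, 33.8% held CCAAT, 16.0% TTTGAA, 7.89% an E2F form and 6.75% TGANTCA. A match describes the letters and is not a measured site.

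The B-type cyclins were the members that rose most between S and mitotic cells. Ccnb1 (ENSMUSG00000041431, chr13:100778650-100786570 on GRCm38), whose product takes Cdk1 into mitosis and names the reporter, stood at 46.0 (38.4 to 54.7) CPM in S cells of library 1 and 40.9 (33.5 to 49.4) in library 2. In mitotic cells it stood at 315 (302 to 328) and 301 (289 to 314). Both mitotic values lay far above both S values. The log2 fold change was 2.76 (SE 0.10, 95% interval 2.56 to 2.96), a 6.78-fold rise, with edgeR's adjusted p = 1.382e-23. Cells of neither class lay between, at 88.5 and 78.7, as did cells of both classes, at 169 and 145.

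Ccnb2 (ENSMUSG00000032218, chr9:70407692-70421547), the second mitotic cyclin, went from 42.1 (34.9 to 50.4) and 50.7 (42.5 to 60.1) CPM in S cells to 229 (218 to 240) and 255 (244 to 267) in mitotic cells of libraries 1 and 2. Its log2 fold change was 2.32 (SE 0.10), 4.99-fold, with edgeR's adjusted p = 7.686e-21. Ccna2 (ENSMUSG00000027715, chr3:36564865-36572150), which is already needed for DNA replication, was less restricted. It stood at 97.4 (86.2 to 110) and 112 (100.0 to 126) in S cells and reached 233 (222 to 244) in mitotic cells of both libraries. The rise was 1.09 on the log2 scale (SE 0.09), 2.13-fold, with edgeR's adjusted p = 1.306e-12. In S cells the level of Ccna2 was thus above those of both B-type genes, with no overlap of the counting intervals within a library.

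The E-type cyclins went the other way. Ccne1 (ENSMUSG00000002068, chr7:38097984-38107534), the Cdk2 partner at the G1 to S transition, stood at 52.8 (44.7 to 62.0) CPM in S cells of library 1 and 78.4 (68.1 to 89.8) in library 2, and at 5.72 (4.14 to 7.71) and 6.77 (5.04 to 8.91) in mitotic cells. Its log2 fold change was -3.44 (SE 0.16), 10.9-fold lower, with edgeR's adjusted p = 1.568e-19. Ccne2 (ENSMUSG00000028212, chr4:11191351-11204779), its close relative, stood at 30.7 (24.6 to 37.9) and 31.0 (24.7 to 38.5) in S cells and at 2.00 (1.12 to 3.29) and 1.46 (0.729 to 2.61) in mitotic cells, where 15 and 11 UMIs were counted. This was 18.4-fold lower (log2 fold change -4.20, SE 0.25, edgeR's adjusted p = 2.134e-16). Cells that carried S and mitotic RNA together kept Ccne1 at 32.8 and 33.2, while their Ccne2 was at 6.31 (2.05 to 14.7) and 10.6 (4.25 to 21.8).

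**Figure D1:**
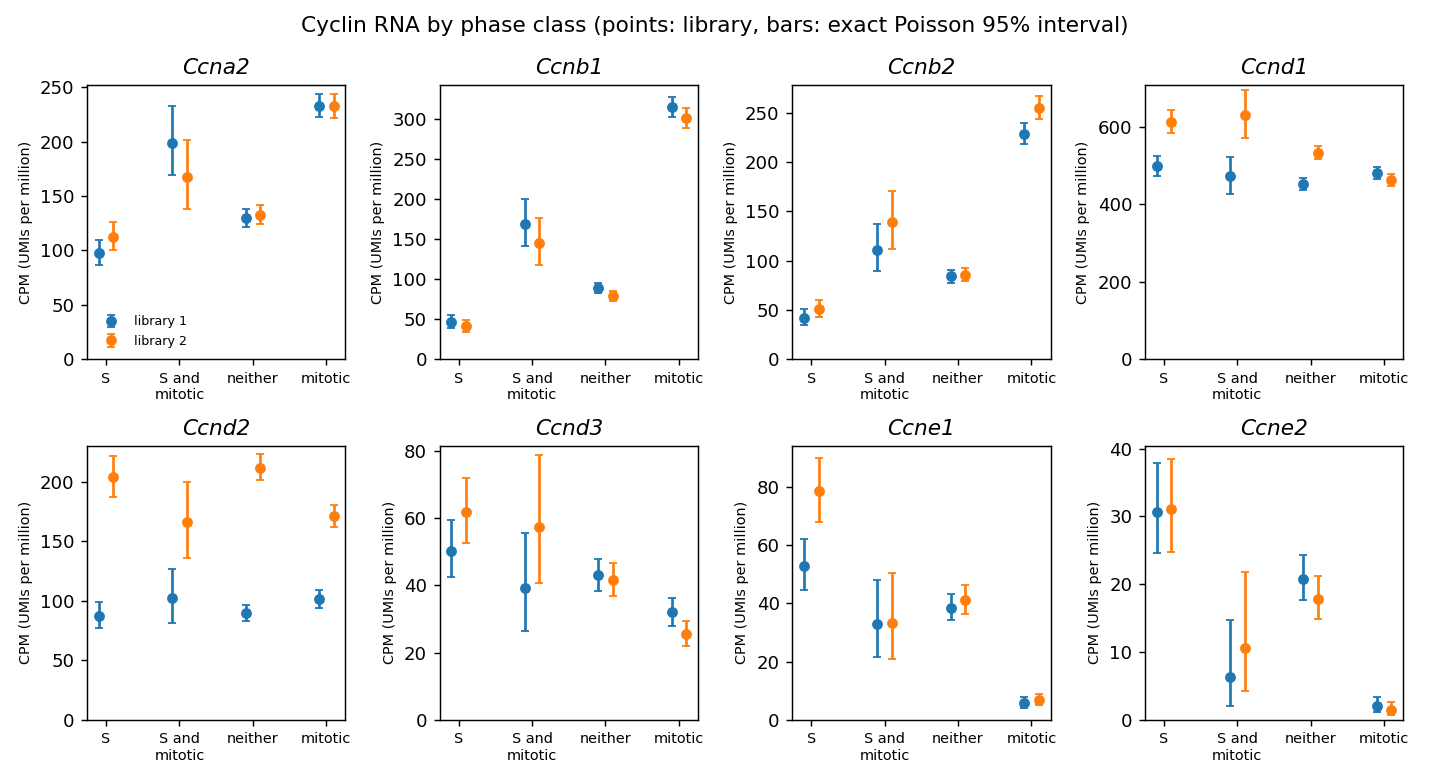
CPM (vertical axes, from 0) of the 8 cyclins in 4 phase classes (horizontal axes), 1 panel a gene, with library 1 in blue, library 2 in orange and bars for the exact Poisson 95% interval. Ccna2, Ccnb1 and Ccnb2 are highest in mitotic cells, Ccne1 and Ccne2 are lowest there, and Ccnd2 separates the libraries in every class.

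Among the D-type genes, Ccnd3 had the largest difference between S and mitotic cells. Ccnd3 (ENSMUSG00000034165, chr17:47505051-47599691) stood at 50.3 (42.4 to 59.3) and 61.7 (52.6 to 72.0) CPM in S cells and at 31.9 (28.0 to 36.2) and 25.5 (22.0 to 29.4) in mitotic cells. It fell by 1.02 on the log2 scale (SE 0.14, 2.03-fold, edgeR's adjusted p = 4.674e-07). Ccnd1 (ENSMUSG00000070348, chr7:144929931-144939925), the D-type with the most UMIs, stood at 498 (472 to 525) in S and 479 (464 to 495) in mitotic cells of library 1, intervals that overlap. In library 2 it stood at 613 (584 to 644) and 463 (448 to 479), which do not. The pooled difference was -0.29 (SE 0.08, edgeR's adjusted p = 0.006534), and it rests on library 2. The keratin make-up of the phase classes also differed. In library 2, 442 of 1068 mitotic and 74 of 370 S cells had mainly Krt15 RNA, the class described below as lowest in Ccnd1. In library 1 it was 268 of 1075 and 57 of 382. How much this adds to the Ccnd1 difference was not tested. The Ccnd1 call was lost without the library block (edgeR's adjusted p = 0.392) and with DESeq2 (adjusted p = 0.0822).

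Ccnd2 (ENSMUSG00000000184, chr6:127125162-127152193), a D-type cyclin with tissue-restricted roles, did not pass the test between the phase classes. It stood at 87.4 (76.8 to 99.1) in S and 101 (94.3 to 109) in mitotic cells of library 1, and at 204 (187 to 222) and 171 (162 to 181) in library 2. The log2 fold change was -0.11 with a 95% interval of -0.34 to 0.11 (edgeR's adjusted p = 0.530), and the libraries moved in opposite directions. Its level was higher in library 2 in each phase class.

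In all, 7 of the 8 members passed the test between mitotic and S cells, 3 of them higher (Ccna2, Ccnb1 and Ccnb2) and 4 lower (Ccnd1, Ccnd3, Ccne1 and Ccne2). Of all 11300 genes tested, 20.9% passed, with 9.45% higher and 11.5% lower, and their median log2 fold change was 0.01 against -0.20 for the members. The classes differ little in depth, but they are set by counts. When every cell was first thinned to 2000 UMIs and reclassed, far fewer cells passed the limits. Then 3 members (Ccna2, Ccnb1 and Ccnb2) were called, where 138 genes were higher and 63 lower of 7135 tested. Ccnd3, Ccne1 and Ccne2 were lower without passing (edgeR's adjusted p = 0.805, 0.0526 and 0.0819).

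Cells on either side of the limit of 4 UMIs were compared as a description. In cells with exactly 3 mitotic UMIs, 1 short of the class, Ccnb1 was at 159 and 131 CPM in libraries 1 and 2, and in cells with exactly 4 it was at 255 and 195. Ccne1 was at 14.7 and 23.4 just outside the mitotic class and at 10.5 and 16.6 just inside. On the other limit, Ccne1 was at 62.0 and 59.1 in cells with 3 S UMIs and at 46.2 and 77.9 in cells with 4, with overlapping intervals.

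The same genes were then followed over the number of mitotic UMIs, without classes. In cells thinned to 2000 UMIs, Ccnb1 went from 14.9 UMIs per 100 cells without mitotic UMIs to 77.7 with 4 or more in library 1, and from 13.0 to 78.9 in library 2. Ccnb2 went from 14.7 and 14.5 to 63.3 and 67.9, and Ccna2 from 23.6 and 24.2 to 55.0 and 60.4. Ccna2 thus began above the B-types and ended below Ccnb1. Ccne1 went from 7.62 and 11.2 UMIs per 100 cells down to 0 of 278 cells, which allows up to 1.33 per 100, and to 0.755. Ccnd2 showed no such slope, at 18.2 and 40.5 without mitotic UMIs and 24.1 and 32.5 with 4 or more. Ccnd1 in library 2 went from 110 (104 to 116) to 70.6 (60.8 to 81.4), while in library 1 it went from 94.9 to 88.1 with overlapping intervals.

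**Figure D2:**
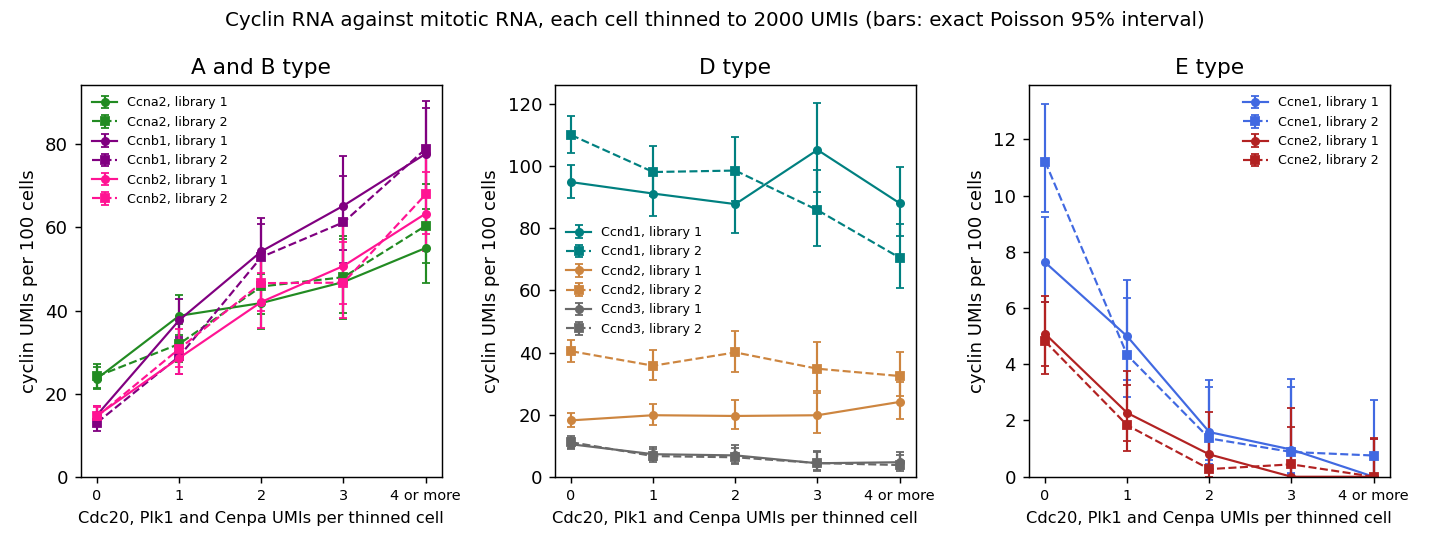
Cyclin UMIs per 100 cells (vertical axes, from 0) against the number of Cdc20, Plk1 and Cenpa UMIs in cells thinned to 2000 UMIs (horizontal axes), for A- and B-type (left), D-type (middle) and E-type genes (right), with solid lines for library 1, dashed lines for library 2 and exact Poisson 95% bars. Ccnb1 climbs from 14.9 to 77.7 in library 1, the E-type genes approach 0, and the Ccnd2 lines of the libraries stay apart.

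Seen cell by cell at 2000 UMIs, 69.4% and 67.2% of S cells in libraries 1 and 2 had no UMI of Ccna2, Ccnb1 or Ccnb2, against 22.5% and 22.0% of mitotic cells. An E-type and a B-type UMI met in 0.281% (0.0580 to 0.820%) and 0.755% (0.327 to 1.48%) of mitotic cells (exact binomial intervals). Only 0.84% and 1.23% of mitotic cells had any E-type UMI, which caps that share. It thus does not show whether the types avoid each other. In S cells they met in 1.57% and 2.98%. For comparison, Ccnb1 was seen in 3.33% of the thinned cells without Mki67 or Top2a (median 3166 UMIs before thinning), against 46.1% and 44.0% of mitotic cells (medians 6421 and 6594). Before thinning the shares were 7.08% against 82.8% and 81.4%. Both groups were picked by proliferation RNAs from the same counts, so this gap is a description and not a contrast with a background level. For Ccne1, thinned mitotic cells of libraries 1 and 2 had 0.750% (0.324 to 1.47%) and 0.944% (0.454 to 1.73%). The thinned cells without Mki67 or Top2a had 5.15% (2.09 to 10.3%) and 1.83% (0.379 to 5.25%), from 7 and 3 cells. The intervals were apart in library 1 and overlapped in library 2. Cells without Mki67 or Top2a are kept cells that may carry their own Ccne1 RNA, so their share is not a level of free RNA. Whether the Ccne1 UMIs of mitotic cells are free RNA was not tested. Ccnd1 was seen in 51.7% of the thinned cells without Mki67 or Top2a and in 58.5% and 51.2% of mitotic cells.

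Most of the other cyclins did not pass the test between mitotic and S cells. Of 18 listed, 14 were tested and 2 were higher and 2 lower in mitotic cells, beside the 9.45% and 11.5% of all genes given above. Ccnf, the F-box cyclin of a ubiquitin ligase in G2, rose by 1.36 on the log2 scale (SE 0.15, edgeR's adjusted p = 5.965e-09). Ccnt1 and Ccnh, partners of transcriptional Cdks, fell by 0.51 and 0.38 (edgeR's adjusted p = 0.0125 and 0.0483).

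Of 50 Cdk partners and regulators, 49 were tested, and 18 were higher and 18 lower in mitotic cells. Of all genes tested, 9.45% were higher and 11.5% lower. As for the members, these calls describe how the RNAs go with the classing RNAs. The rises were largest in Cdc25c (2.77) and Cdc25b (2.66), phosphatases that activate Cdk1, in Ube2c (2.66), an E2 enzyme of the anaphase-promoting complex, in Aurka (1.96), a spindle kinase, and in Cks2 (1.62), a Cdk subunit, all as log2 fold changes with edgeR's adjusted p at or below 3.554e-15. On the lower side stood E2f1 (-3.20), a transcription factor of S-phase genes, Cdt1 (-2.88), which licenses replication origins, Cdc25a (-1.41), the phosphatase of the G1 to S step, E2f8 (-1.39), an atypical repressor of the E2F family, and Gmnn (-1.30), the inhibitor of Cdt1.

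The genes whose levels most resembled each member were sought over 20 sums of cells by library, keratin class and phase class, among 5775 genes. These sums share cells' phase and library, so the correlations are descriptions. Ccna2 was most like Cdk1 (Pearson r = 0.97), followed by Cks2 and Ube2c. Ccnb1 (r = 0.98) and Ccnb2 (r = 0.99) both had Arl6ip1 first, then Tpx2 and Ckap2 for Ccnb1 and Cenpf and Cenpe for Ccnb2. Ccne1 was nearest to Slbp (r = 0.97), the histone messenger-binding protein, then E2f1 and Lig1, and Ccne2 to Mcm7 (r = 0.96), a replicative helicase subunit, then Ung and Cdt1. The D-types had weaker neighbours, with Ybx3 for Ccnd1 (r = 0.83), Lrpap1 for Ccnd2 (r = 0.79) and Gtf2a2 for Ccnd3 (r = 0.76). Between members, r was 0.97 for Ccnb1 with Ccnb2, 0.92 for Ccne1 with Ccne2 and 0.38 for Ccnd1 with Ccnd2.

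Along the keratin axis the picture was different, with Ccnd1 the member that passed the test. Cells with at least 5 UMIs of Krt12 and Krt15 together were split by the share of Krt12. Below 0.4 (Krt15-dominant) lay 663 cells of library 1 and 959 of library 2, from 0.4 to 0.8 (mixed) 161 and 164, and above 0.8 (Krt12-dominant) 2304 and 1821. Ccnd1 stood at 427 (405 to 448) CPM in Krt15-dominant cells of library 1, 527 (486 to 570) in mixed cells and 478 (466 to 489) in Krt12-dominant cells. In library 2 it stood at 371 (354 to 388), 594 (550 to 641) and 578 (564 to 592). Krt15-dominant cells were the lowest class in both libraries.

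The Ccnd1 difference between Krt12- and Krt15-dominant cells was 0.43 on the log2 scale (SE 0.09, 95% interval 0.23 to 0.62, edgeR's adjusted p = 0.001147), 1.34-fold. By library it was 0.16 and 0.64, both outside that interval. It was the 1 member of 8 called, while 32.5% of 11140 genes tested were called, 15.6% higher and 16.9% lower, so the members' share was no larger than that of all genes. The call was lost without the library block (edgeR's adjusted p = 0.0921).

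Krt15-dominant cells also differ from Krt12-dominant cells in phase and in cell type markers. Mitotic cells made up 40.4% and 46.1% of the former in libraries 1 and 2 and 32.4% and 30.9% of the latter, and S cells 8.60% and 7.72% against 13.1% and 15.0%. Conjunctival marker RNA, at least 3 UMIs of Krt13, Krt4 and Krt19 together, was in 34.7% and 41.9% of Krt15-dominant cells and in 4.34% and 3.30% of Krt12-dominant cells. The summed level of the 5 conjunctival markers was 2220 and 2960 CPM in the former and 1788 and 848 in the latter. Most of that sum was Krt6a, at 1285 and 1303 CPM in Krt15-dominant and 1670 and 724 in Krt12-dominant cells, so in library 1 Krt6a was higher in the latter. The other 4 markers were higher in Krt15-dominant cells of both libraries, such as Krt4 with 358 and 567 against 6.64 and 8.23. Without the cells carrying such RNA the Ccnd1 difference was 0.40 (edgeR's adjusted p = 0.004236).

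The remaining members did not pass the test along this axis. Ccnb1 was -0.21 (95% interval -0.39 to -0.04, edgeR's adjusted p = 0.0569), Ccnb2 -0.23 (-0.42 to -0.03, adjusted p = 0.0743) and Ccne1 0.36 (0.07 to 0.66, adjusted p = 0.0542). These 3 lay close to the threshold, and all 3 passed it with share limits of 0.3 and 0.9 (edgeR's adjusted p = 0.0193, 0.0443 and 0.0218). Ccnb1 and Ccne1 also passed with a mitochondrial limit of 10%, and Ccnb2 without the cells with Krt13, Krt4 or Krt19 RNA (-0.31, adjusted p = 0.0306). Ccna2 (-0.11), Ccnd3 (0.15) and Ccne2 (0.08) lay nearer to 0.

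Within mitotic cells, no A- or B-type gene passed the test between the keratin classes. Among mitotic cells Ccnb1 stood at 324 (297 to 353) and 306 (286 to 328) CPM in Krt15-dominant cells and at 316 (301 to 332) and 306 (289 to 323) in Krt12-dominant cells, a difference of -0.02 with a 95% interval of -0.23 to 0.20. For Ccna2 the interval was -0.27 to 0.16 and for Ccnb2 -0.29 to 0.13. Ccne1 was at 3.64 and 4.44 in Krt15-dominant and 6.53 and 7.46 in Krt12-dominant mitotic cells, a difference that did not pass (0.83, edgeR's adjusted p = 0.102).

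Ccnd1 differed between the keratin classes in mitotic cells. It stood at 385 (356 to 416) and 278 (258 to 299) in Krt15-dominant mitotic cells and at 504 (485 to 523) and 571 (549 to 594) in Krt12-dominant ones, with no overlap. The log2 difference was 0.71 (SE 0.16, 95% interval 0.34 to 1.08, edgeR's adjusted p = 0.0100), with 0.39 in library 1 and 1.04 in library 2. Here 1 of 8 members was called, against 25.8% of 10336 genes, 12.0% of them higher. Without the cells with conjunctival marker RNA it was 0.71 (edgeR's adjusted p = 0.000397), and with a limit of 6 UMIs for the phase classes it no longer passed (0.75, adjusted p = 0.271).

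In S cells Ccnd1 stood at 550 (476 to 633) and 531 (465 to 604) in the Krt15-dominant and at 474 (446 to 503) and 636 (602 to 671) in the Krt12-dominant class, so the libraries pointed in different directions. The difference was 0.08 (95% interval -0.33 to 0.49, edgeR's adjusted p = 0.863). Of the 8 members, 0 were called in S cells by edgeR, where 8.87% of 10336 genes were called, 4.25% higher and 4.62% lower. Before adjustment, edgeR's p lay below 0.05 for 0 members and for 2233 of the 10336 genes. DESeq2 called 0 members, beside 264 genes higher and 422 lower. The Krt15-dominant S cells numbered 57 and 74, which limits the comparison within S cells.

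Ccnd1 was therefore lower in mitotic than in S cells within the Krt15-dominant class in both libraries, while within the Krt12-dominant class it stood at 474 in S and 504 in mitotic cells of library 1 and at 636 and 571 in library 2. The test of that difference, the interaction, gave 0.63 for Ccnd1 (SE 0.24, unadjusted p = 0.029 and adjusted p = 0.905 by edgeR). For the interaction 0 of 10336 genes (0.0%) were called by edgeR, with 546 at an unadjusted p under 0.05, and 0 by DESeq2, with 190. The difference between the keratin classes in the Ccnd1 phase change is thus not shown after adjustment. Without a filter on low counts it passed (edgeR's adjusted p = 0.0429).

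**Figure D3:**
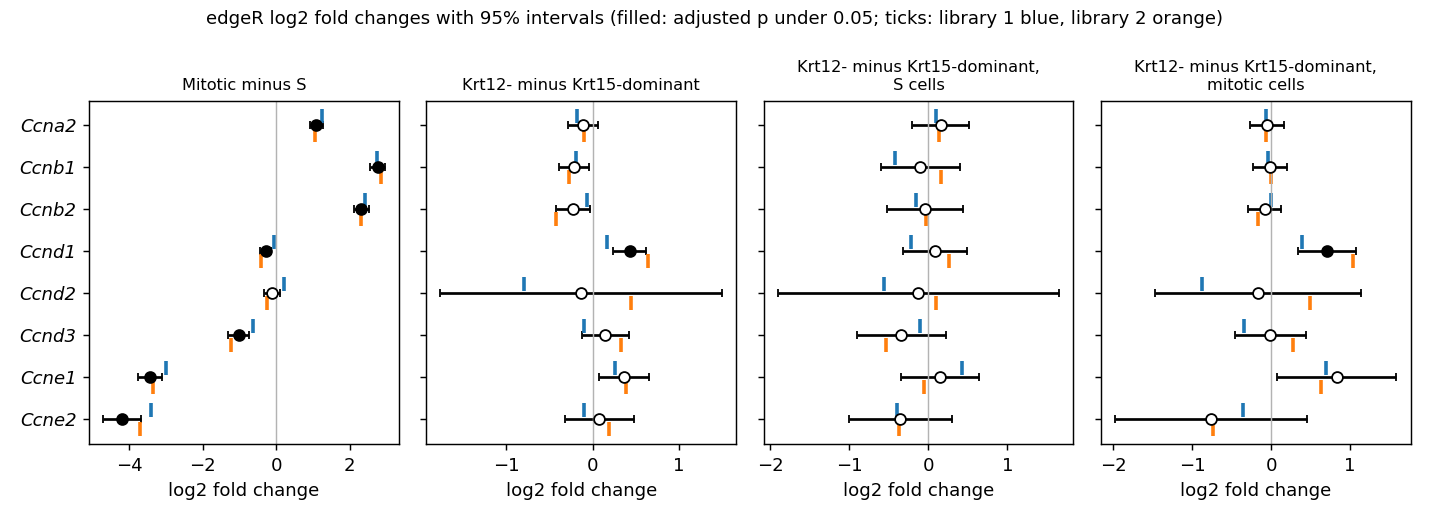
Log2 fold changes (horizontal axes) of the 8 cyclins (vertical axis) in 4 comparisons, with edgeR's estimate as a circle (filled where the adjusted p is under 0.05), its 95% interval as a bar, and each library's own log2 ratio of CPM + 1 as a tick (blue library 1, orange library 2). Ccnb1 (2.76) and Ccne2 (-4.20) span the phase comparison, and Ccnd1 is the filled circle of the keratin comparisons, at 0.43 over all cells and 0.71 in mitotic cells.

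Of the wider lists, 3 of 14 other cyclins tested passed the test between the keratin classes, each higher in Krt12-dominant cells, where 15.6% of all genes were higher and 16.9% lower: Ccnh (0.52), Ccnk (0.50), a partner of transcriptional Cdks, and Ccng1 (0.43), a target of p53. Of 49 partners and regulators, 7 were higher and 4 lower. The higher ones included E2f7 (0.97), an atypical E2F repressor, Fbxw7 (0.94), the F-box protein that marks cyclin E for degradation, Cdkn1a (0.53), the Cdk inhibitor p21, Wee1 (0.32), an inhibitory kinase of Cdk1, and Gmnn (0.27). E2f8 (-0.63) and Cdc25b (-0.62) were among the lower. Within mitotic cells, where 25.8% of all genes were called, 3 of the 49 were higher in the Krt12-dominant class, Fbxw7 (0.81), E2f7 (0.84) and Cdkn1a (0.52), and 5 were lower, among them E2f8 (-0.64) and Cdc25b (-0.36). Within S cells Fbxw7 (1.42) and Ube2c (0.58) were higher and Cdk4 (-0.41), the kinase partner of the D-types, was lower. These are log2 differences that passed edgeR's test.

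Ccnd2 was the member that set the libraries apart. It stood at 94.5 (90.2 to 99.0) CPM in library 1 and 192 (185 to 198) in library 2, a ratio of 2.03 (exact 95% interval 1.92 to 2.15). No other member differed so: the ratios of the other 7 ran from 0.892 (Ccne2) to 1.17 (Ccne1). At least 1 Ccnd2 UMI was in 12.6% of Krt12-dominant cells of library 1 and 30.3% of those of library 2 after thinning to 2000 UMIs (29.0% and 55.2% before), so the excess was spread over many cells. With 1 sample behind each library there is no test, and the intervals cover counting error only.

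The ratio was largest in Krt12-dominant cells. Among Krt15-dominant cells Ccnd2 stood at 139 (128 to 152) and 150 (140 to 162) CPM in libraries 1 and 2, a ratio of 1.08 (0.963 to 1.21). That ratio differed between the phases: it was 1.67 (1.14 to 2.47) in Krt15-dominant S cells, 1.30 (1.08 to 1.56) in those of neither class and 0.857 (0.728 to 1.01) in mitotic ones. Mixed cells had 119 (101 to 141) and 247 (219 to 278), a ratio of 2.07 (1.69 to 2.55), and Krt12-dominant cells 79.9 (75.3 to 84.8) and 204 (196 to 213), a ratio of 2.56 (2.38 to 2.75). Hence Ccnd2 was lower in Krt12-dominant than in Krt15-dominant cells in library 1 (log2 ratio -0.80) and higher in library 2 (0.44). The pooled difference of -0.13 has a 95% interval of -1.762 to 1.496 (edgeR's adjusted p = 0.871) and describes neither library. Cells without Mki67 or Top2a showed the same order, with 99.1 and 254.

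Krt14, a basal keratin, moved the opposite way in Krt12-dominant cells, at 6651 CPM in library 1 and 3372 in library 2, and Krt6a was lower in library 2 there, as given above. Krt12 itself stood at 14420 and 18490. Whether Krt12-dominant cells of the libraries came from different layers, places or handling was not tested.

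**Figure D4:**
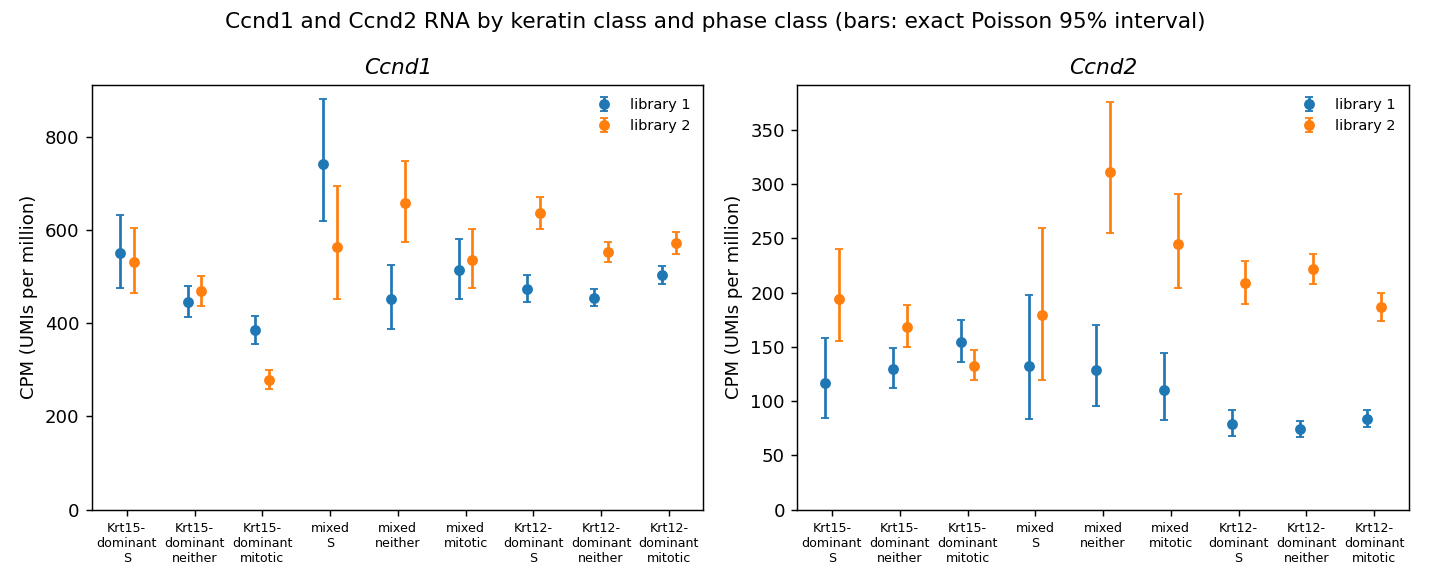
CPM (vertical axes, from 0) of Ccnd1 (left) and Ccnd2 (right) in 9 classes of cells by dominant keratin and phase (horizontal axes), with library 1 in blue, library 2 in orange and exact Poisson 95% bars. Ccnd1 is lowest in Krt15-dominant mitotic cells (385 and 278), and Ccnd2 of library 2 lies above library 1 in all 3 Krt12-dominant classes.

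The Krt15-dominant class was split further by its markers. This split was made after values had been seen and has no test. Cells with conjunctival marker RNA (230 and 402) had 80.6 (66.7 to 96.6) and 96.6 (84.9 to 110) CPM. Those without it and with at least 3 UMIs of Gpha2, a limbal stem cell marker (243 and 403 cells), had 201 (176 to 227) and 216 (196 to 238), and those with neither (190 and 154) had 150 (126 to 177) and 165 (133 to 202). In both libraries the Gpha2 cells thus lay above the conjunctival-marker cells with no overlap of intervals. Ccnd1 was not ordered that way, at 398 and 367 in conjunctival-marker cells, 396 and 343 in Gpha2 cells and 511 and 486 in those with neither. Ccnb1, at 210 and 183, 195 and 194, and 182 and 244, showed no order shared by the libraries.

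**Figure D5:**
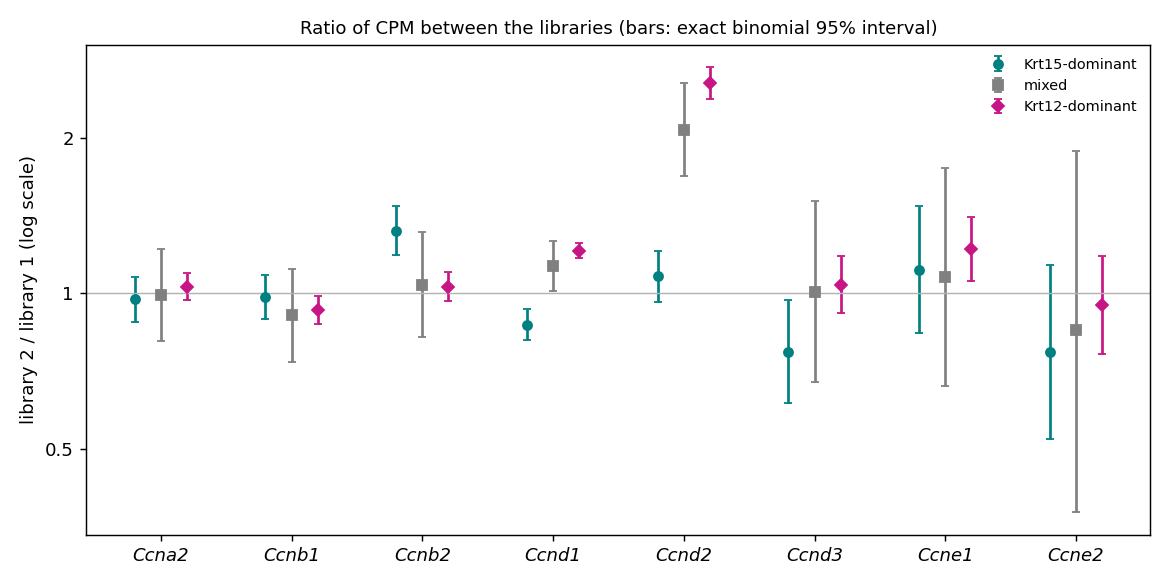
Ratio of library 2 to library 1 in CPM (vertical axis, log scale) for the 8 cyclins (horizontal axis) in Krt15-dominant (circles), mixed (squares) and Krt12-dominant cells (diamonds), with exact binomial 95% bars. Ccnd2 lies at 1.08, 2.07 and 2.56 in these classes, and no other member reaches the last pair of these values.

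As a family, the D-types kept Ccnd1 in front. Of all D-type UMIs, Ccnd1 made up 77.8% (77.1 to 78.6%) in library 1 and 69.3% (68.5 to 70.1%) in library 2, Ccnd2 15.6% and 25.6%, and Ccnd3 6.53% and 5.12% (exact binomial intervals). Since the assay counts 3′ ends, such shares compare captured molecules and were not corrected for differences in capture between genes. Over single cells, 20.3% and 20.6% had no Ccnd1 UMI and the highest count was 23 and 33, while 92.9% and 93.5% had no Ccne2 UMI and the highest was 3 and 2.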

How the data were processed

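The file deposited by the authors holds raw UMI counts, whole numbers for each gene and barcode, with both libraries in 1 matrix. The submitters' processing notes name Cell Ranger 3.1.0, Seurat 5.0.0 and GRCm38/mm10, without a role or order. How the libraries were aggregated is not given in the sources used here. The members and gene lists were chosen with earlier results of these data known. No doublet caller was run. Removing the 3% of cells with most UMIs was an alternative instead.

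The counts of all cells of a class were added up within each library and compared by edgeR 4.0.16 in R 4.3.3 (robust quasi-likelihood, TMM, filterByExpr), with the library as a block, since the sums of 1 library come from 1 sample. Fold changes are differences of fitted log2 values, and the ratios by library are of log2(CPM + 1). P-values were Benjamini-Hochberg adjusted over all genes tested, with a threshold of 0.05. In simulated counts with 200 changed genes, these fits recovered 175 of them for mitotic against S cells (11300 genes), 181 for the keratin classes (11140) and 75 for the keratin classes within S cells (10336). The changed genes were drawn from those with higher counts and had the same size of change, up or down. The spread was constant, and the libraries differed in depth only. The recovery therefore does not measure the power of the tests in the real counts. DESeq2 1.42.0, other normalisations, filters and class limits were alternatives. All members are described. Of each wider list, at most 5 genes per direction are named, the largest changes among called genes whose libraries shared the sign, with mean CPM (UMIs scaled to 1000000) at or above 20. Resemblance used Pearson's r of log2(CPM + 5) over sums of at least 20 cells. Thinning left out 325 and 337 shallower cells. Gene positions are those of GENCODE on GRCm38.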

Additional observations from a re-analysis of the deposited data

Results flagged for a closer look

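Ccnd2 moved in opposite directions in the 2 libraries in both main comparisons, with counting intervals that exclude 0 each time. Between Krt12- and Krt15-dominant cells its log2 ratio of CPM was -0.80 (exact 95% interval -0.96 to -0.65) in library 1 and 0.44 (0.32 to 0.56) in library 2. Between mitotic and S cells it was 0.21 (0.00413 to 0.43) in library 1 and -0.25 (-0.40 to -0.11) in library 2. The difference between the libraries was not tested, because each library is 1 sample. The counting intervals of the Ccnd2 level overlapped between the libraries in Krt15-dominant cells and did not in Krt12-dominant cells.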

How the results depend on the processing

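Direction and call of Ccna2, Ccnb1 and Ccnb2 between mitotic and S cells held under the 8 alternatives run. Their lowest log2 fold changes were 1.07, 2.75 and 2.31. Between mitotic and S cells, genes called higher and lower numbered 444 and 650 with DESeq2, 233 and 261 without the replicate block by library, and 138 and 63 with cells thinned to 2000 UMIs, where 3 members were called, Ccnd1 (0.028) and Ccnd2 (0.31) changed sign without a call, and the median of all genes moved to 0.26. Between the keratin classes the counts were 793 and 984 with DESeq2, 688 and 865 without the block, and 1056 and 1113 after thinning. Members called there were 0 without the block, 3 under 10% mitochondrial UMIs and 4 with share limits of 0.3 and 0.9. Without cells with Krt13, Krt4 or Krt19 RNA, an alternative chosen after seeing the data, 2 were called. Under the mitochondrial limit, 1749 genes were higher and 1890 lower of 11133 tested. At those share limits it was 1773 and 1931 of 11031, and without the marker cells 1440 and 1522 of 10235. Within S cells, 264 genes were higher and 422 lower with DESeq2, and 181 were higher and 186 lower without the block. Within mitotic cells the counts were 672 and 812 with DESeq2, 571 and 694 without the block, and 182 and 205 after thinning. At a limit of 6 UMIs, 0 members were called by edgeR there, beside 1055 genes higher and 1191 lower of 9693 tested (3183 at an unadjusted p under 0.05). With DESeq2 at the main limit Ccnd1 was called. Uncalled values that changed sign within mitotic cells were, after thinning, Ccna2 (0.15), Ccnb1 (0.38), Ccnb2 (0.076) and Ccnd2 (0.045); without the low-count filter, Ccnb1 (7.0e-06) and Ccnd3 (0.0072); without the 3% of cells with most UMIs, Ccnb1 (0.0020) and Ccnd3 (0.0050); with share limits of 0.3 and 0.9, Ccnb1 (0.0097) and Ccnd3 (0.022); and at a limit of 6 UMIs, Ccnd3 (0.076) and Ccne2 (0.20, from -0.76). For the interaction, 5 genes were higher and 17 lower without the filter, with 1 member called, and 1 and 1 without cells with Krt13, Krt4 or Krt19 RNA. There, Ccnb2 (0.047) and Ccnd2 (0.038) changed sign with share limits of 0.3 and 0.9, and Ccnd2 (0.0021) without the block. Before thinning, the library intervals of the level over all cells did not overlap for Ccnb2, Ccnd1 and Ccnd2. After thinning, 1 member had library intervals that did not overlap. The same counts were not made over all genes, so they are no result about the members. The cause of these changes was not tested.

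Leaving out 1 library leaves no residual spread, so those values have no test. They are the per-library values in the text. The interaction and the comparison within S cells could not be fitted after thinning or at 6 UMIs, where too few Krt15-dominant S cells remained. The numbers in the labels could not be used to pair samples, so the block is the library. Depth limits Ccne2 most, with 15 and 11 UMIs in mitotic cells.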

Other observations

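The 116 cells with under 5 UMIs of Krt12 and Krt15 together were in no keratin class. They were shallow, with a median of 1573 UMIs in library 1 (59 cells) and 1331 in library 2 (57 cells). Ccnb1 stood at 51.5 (20.7 to 106) CPM in library 1, from 7 UMIs, and at 228 (139 to 352) in library 2, from 20 UMIs. Ccnd1 went the other way, at 427 (324 to 552) and 262 (166 to 393). Ccnd2 was at 169 (107 to 254) and 205 (122 to 324), with overlapping intervals.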
